A study of Mus musculus with 12 samples.

Results

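The Frizzled genes Fzd1 to Fzd10 encode the membrane receptors of Wnt signals. They were chosen by symbol from a table of 24692 entries, and all 10 were found there. Of these, 9 reached 1 FPKM (a fragment count scaled by transcript length and by library) in at least 3 libraries and were tested. Fzd9 did not. The table holds 12 RNA-sequencing libraries, 3 from each of 4 populations sorted by flow cytometry from mouse back skin: hair follicle dermal stem cells, dermal papilla cells, dermal sheath cells and interfollicular dermis. All mice were males of postnatal day 26 to 27 carrying the Sox2:GFP and aSMA:dsRed reporters, which place a green fluorescent protein under Sox2 and a red one under smooth muscle actin, and their hair was in early anagen, the start of the growth phase. The skin was dissociated with dispase and collagenase. The labels do not name the antibodies or say which reporter selected which population. They also do not say whether libraries came from separate or pooled animals. A p-value here thus reflects no more than how libraries vary within populations, pooled over all 4, which may be technical variation.

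A Frizzled receptor binds a Wnt through an extracellular cysteine-rich domain. With Lrp5 or Lrp6 as co-receptor it recruits Dishevelled proteins and stabilises beta-catenin, and with other partners it orients cells within the plane of a tissue. Frizzled proteins are removed from the surface by the ubiquitin ligases Rnf43 and Znrf3, which R-spondins and their Lgr receptors hold in check. In skin, Wnt signalling is required for follicles to form and to re-enter growth, and Fzd6 is known for setting the orientation of hairs. By sequence the family falls into the subfamilies Fzd1, Fzd2 and Fzd7, then Fzd5 and Fzd8, then Fzd4, Fzd9 and Fzd10, then Fzd3 and Fzd6. The values are given by subfamily, with the untested Fzd9 last.

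Most Frizzled genes are compact. In GENCODE M21 on GRCm38 (mm10), Fzd1, Fzd2, Fzd7, Fzd8, Fzd9 and Fzd10 each consisted of 1 exon, and Fzd4 and Fzd5 of 2, with the coding sequence of Fzd5 in 1 of them. Fzd3 and Fzd6 had 7 exons each, 6 of them coding. Fzd1 lay on the minus strand of chromosome 5 at 4753839 to 4758035, Fzd4 on the plus strand of chromosome 7 at 89404355 to 89413134, and Fzd5 on the minus strand of chromosome 1 at 64730558 to 64737751. Chromosome 5 also carried Fzd10 (128600844 to 128604093, plus strand) and Fzd9 (135248938 to 135251230, minus strand). Fzd2 lay on chromosome 11 at 102604396 to 102608058, Fzd7 on chromosome 1 at 59482424 to 59486955 and Fzd6 on chromosome 15 at 39006034 to 39038188, all on the plus strand, while Fzd3 lay on the minus strand of chromosome 14 at 65192449 to 65262463. The first exon of Fzd5 was overlapped by a provisional antisense transcript (Gm38058) and that of Fzd6 by an opposite-strand RNA (Gm26704). Whether counting used strand is not given in the sources used here, so reads of such pairs cannot be told apart.

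Fzd1, Fzd4 and Fzd5 were the 3 members called higher in sheath than in interfollicular dermis, the comparison in which the fewest genes were called, and their upstream sequences are shown for that reason. RefSeq promoter entries (GRCm38.p6) existed for 6 members and give 250 bases before the RefSeq transcript start, here trimmed to stop before any annotated exon. Capitals mark the letters TATAAA and CCAAT, the GC box GGGCGG and the TCF/LEF core CTTTGA, on either strand. The other motifs searched, CACGTG and TGACTCA, were in none of the 3 sequences.
Fzd1 (chr5:4758217-4758466, minus strand): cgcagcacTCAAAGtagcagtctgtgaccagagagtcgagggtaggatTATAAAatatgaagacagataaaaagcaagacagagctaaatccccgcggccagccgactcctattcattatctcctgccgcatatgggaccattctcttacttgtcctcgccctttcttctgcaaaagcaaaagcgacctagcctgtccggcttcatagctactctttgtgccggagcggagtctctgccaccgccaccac
Fzd4 (chr7:89404116-89404354, plus strand): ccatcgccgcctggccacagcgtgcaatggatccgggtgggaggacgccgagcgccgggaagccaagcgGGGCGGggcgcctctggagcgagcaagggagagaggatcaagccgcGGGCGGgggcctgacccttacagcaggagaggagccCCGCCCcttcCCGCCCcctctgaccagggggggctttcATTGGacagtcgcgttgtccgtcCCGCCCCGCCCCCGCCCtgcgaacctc
Fzd5 (chr1:64737752-64738000, minus strand): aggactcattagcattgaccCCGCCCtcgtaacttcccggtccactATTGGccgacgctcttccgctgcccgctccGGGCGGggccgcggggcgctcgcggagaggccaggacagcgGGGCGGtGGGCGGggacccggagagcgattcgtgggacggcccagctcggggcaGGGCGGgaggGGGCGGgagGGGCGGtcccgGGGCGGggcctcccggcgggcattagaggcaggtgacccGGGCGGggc
The upstream sequence of Fzd1 held 1 TATAAA, 1 CTTTGA on the opposite strand and no GC box, with a GC content of 51.2% and 12 CpG sites. That of Fzd4 held 7 GC boxes and 1 CCAAT in a window of 72.8% GC with 25 CpG sites. The Fzd5 window held 9 GC boxes and 1 CCAAT at 76.4% GC with 32 CpG sites. One pair of GC boxes in the Fzd4 sequence overlapped by 1 base. Of 32817 RefSeq promoters of the same length, 12.4% held TATAAA, 13.8% CTTTGA, 32.7% GGGCGG and 33.8% CCAAT, and the medians were 52.4% GC and 6 CpG sites. The Fzd1 window was thus near the median GC content, and the other two far above it. The TATAAA of Fzd1 lay 202 to 197 bases before the RefSeq start. The bases after that start were not found in a GENCODE transcript of Fzd1, so the start itself is uncertain. A match describes letters, not a bound site.

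Libraries with the sheath and interfollicular labels had lower levels of fibroblast transcripts than those of stem cells and papilla. The summed level of 8 fibroblast genes (collagens, Pdgfra, Vim, Lum, Dcn and Dpt) ran from 9340 to 11900 FPKM in the stem cell libraries and 13500 to 24300 in papilla. It was 954 to 1910 FPKM in dermal sheath and 812 to 1540 in interfollicular dermis, and all 8 genes were lower in sheath than in stem cells without overlap. Pdgfra, a defining receptor of dermal fibroblasts, averaged 56.2, 34.9, 3.23 and 3.5 FPKM in dermal stem cells, papilla, sheath and interfollicular dermis. Trp63, which marks basal epithelium, averaged 15.5, 16.1, 121 and 89.0 FPKM in the same order, and Acta2, the gene behind the red reporter, averaged 872, 45.4, 49.3 and 8.70. The 5 markers of dermal sheath and dermal stem cells, Acta2 among them, were all lower in sheath than in stem cells without overlap. Their sums were 100 to 336 against 1510 to 1620 FPKM. A list of 6 hair follicle epithelial genes held Msx2, Dlx3, Hoxc13 and the inner root sheath keratins Krt25, Krt27 and Krt71. Of these, 5 were higher in sheath than in stem cells without overlap (sums 892 to 1140 against 160 to 383 FPKM). Krt25 and Krt71 had the largest sheath means (335 and 436 FPKM). All 3 proliferation genes were also higher in sheath without overlap (192 to 228 against 7.33 to 24.8). The 8 keratinocyte genes were divided, with 4 higher (Trp63, Krt5, Cdh1 and Epcam) and 2 lower (Krt1 and Krt10) in dermal sheath without overlap. Krt14 and Krt15 overlapped, and so did the sums of the 8 genes (941 to 1110 against 600 to 1160). Every Frizzled comparison with dermal sheath or interfollicular dermis below stands beside these values, and the part of other cells in them was not tested. In such bulk samples fewer cells of a type and less RNA per cell cannot be told apart.

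Summed FPKM per library ran from 181683 to 262695, between 10711 and 11810 genes reached 1 FPKM, and how many reads a value rests on is unknown. Entries at 0 made up 36.9% to 41.9% in the papilla libraries and 30.1% to 41.5% in the others, so libraries may differ in depth, which bears most on low genes. Differences are on the scale of log2(FPKM + 1), which understates the change of low genes, with standard errors and two-sided p-values from limma adjusted by Benjamini-Hochberg over 12774 genes within each comparison. A gene is called at an adjusted p below 0.05. The FPKM values were not rescaled between libraries, and the median gene differed by -0.25 for papilla minus stem cells, 0.13 for sheath minus stem cells, -0.36 for papilla minus sheath, -0.14 for stem cells minus interfollicular dermis and -0.32 for papilla minus interfollicular dermis. Median-of-ratios scaling brought these medians to -0.07, -0.04, -0.0037, -0.02 and -0.03, and changes are to be read against them. With it, the share of calls that were higher went from 26.6% to 46.7% for papilla minus stem cells, from 55.4% to 44.8% for sheath minus stem cells, from 32.9% to 51.9% for papilla minus sheath and from 32.3% to 52.7% for papilla minus interfollicular dermis.

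Summed over the 10 genes, Frizzled transcripts were most abundant in dermal sheath. The sum was 171.0 ± 25.9 FPKM (SD, n = 3) there, 76.7 ± 6.04 in interfollicular dermis, 68.5 ± 8.62 in stem cells and 44.7 ± 10.2 in papilla. The lowest sheath library (143.7 FPKM) stood above the highest of any other population (80.66), and the highest papilla library (55.69) stood below the lowest stem cell library (59.72). These sums were not rescaled between libraries, and the median gene was also lower in papilla than in stem cells (-0.25). Whether the small gap between papilla and stem cells remains after rescaling was not tested. Dermal stem cells (59.72 to 76.95) and interfollicular dermis (69.77 to 80.66) overlapped.

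The leading receptor differed between interfollicular dermis and the rest. Fzd1 was the most abundant Frizzled in all 9 libraries of dermal stem cells, papilla and sheath, with 34.0% to 61.3% of the sum. In all 3 interfollicular libraries Fzd10 came first, with 25.6% to 35.5%, and Fzd1 held 13% to 16.1%. The ratio of Fzd10 to Fzd1 was 2.04, 2.2 and 1.77 in interfollicular replicates 1, 2 and 6. It was 0.398, 0.454 and 0.269 in sheath replicates 1, 4 and 5, and between 0.0236 and 0.231 in the 6 stem cell and papilla libraries. Dermal sheath thus lay between the other populations in this ratio, with no overlap on either side. Fzd10 made up 14.1% of the sheath sum on average, against 2.99% in dermal stem cells, 4.86% in papilla and 29.2% in interfollicular dermis. Fzd7 came second in all 3 stem cell and all 3 interfollicular libraries, whereas Fzd4 or Fzd5 came second in the papilla libraries and Fzd5 or Fzd7 in the sheath libraries.

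**Figure D1:**
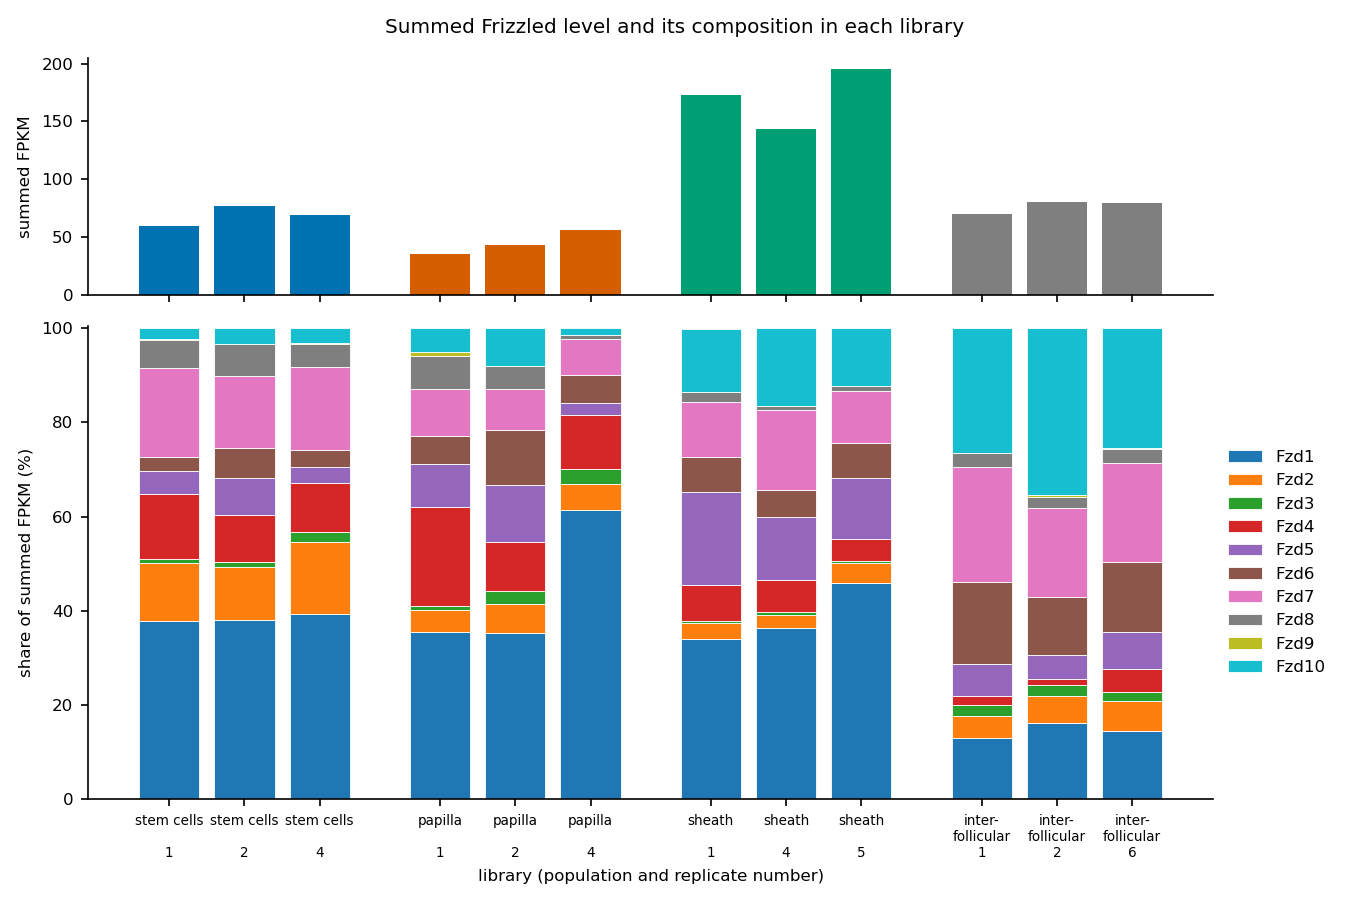
Summed FPKM of the 10 Frizzled genes in each of the 12 libraries (upper bars) and the share of that sum held by each gene in percent (lower stacked bars). The 3 sheath libraries reach 143.7 to 195.3 FPKM, and Fzd10 takes 25.6% to 35.5% of the sum in the 3 interfollicular libraries.

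Across the 4 populations, limma's moderated F test called 7 of the 9 tested members, against 56.8% of all tested genes. Fzd3 (adjusted p = 0.346) and Fzd8 (adjusted p = 0.131) did not pass.

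Fzd1, the most abundant member, was highest in dermal sheath. Its level was 58.8, 52.2 and 89.4 FPKM in sheath replicates 1, 4 and 5, and 22.6, 29.2 and 27.0 in stem cell replicates 1, 2 and 4. Papilla replicates 1, 2 and 4 had 12.6, 15.1 and 34.1 FPKM. Papilla replicate 4 thus stood above every stem cell library while the other papilla libraries stood below them. Interfollicular replicates 1, 2 and 6 had 9.05, 13 and 11.5 FPKM. All sheath libraries exceeded all others. Sheath exceeded stem cells by 1.28 (SE 0.33, limma adjusted p = 0.00733) and interfollicular dermis by 2.45 (SE 0.33, adjusted p = 0.00209). The difference of papilla minus sheath was -1.74 (adjusted p = 0.00093). Dermal stem cells were also higher than interfollicular dermis, by 1.17 (adjusted p = 0.0143), a call that was lost without interfollicular replicate 1 (adjusted p = 0.0574). Papilla and stem cells did not differ beyond their spread (-0.46, 95% interval -1.17 to 0.25). That difference was -0.87 without papilla replicate 4 and -0.19 without papilla replicate 1, and passed under no setting tried. Papilla minus interfollicular dermis was 0.71 (adjusted p = 0.0984), and passed after median-of-ratios scaling (1.07, adjusted p = 0.0237), after quantile normalization (0.94, adjusted p = 0.0414) and without papilla replicate 1 (0.98, adjusted p = 0.0417). Without papilla replicate 4 it was 0.29.

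Fzd2, a close relative of Fzd1 and Fzd7, was highest in dermal stem cells and lowest in papilla. The stem cell libraries had 7.30, 8.77 and 10.6 FPKM, and the papilla libraries 1.64, 2.64 and 3.12. Sheath replicates 1, 4 and 5 had 5.79, 3.92 and 8.41 FPKM and the interfollicular libraries 3.33, 4.72 and 5.01. Papilla lay below each of the other populations without overlap, whereas sheath overlapped both stem cells and interfollicular dermis. Papilla was lower than stem cells by -1.52 (SE 0.29, limma adjusted p = 0.00805). It was also lower than sheath, by -1.0 (adjusted p = 0.0138), but that call was lost after median-of-ratios scaling (-0.64, adjusted p = 0.0887), with the replicate number as a block (-0.80, adjusted p = 0.0724), without papilla replicate 1 (adjusted p = 0.0558) and without sheath replicate 5 (adjusted p = 0.0704). Stem cells exceeded interfollicular dermis by 0.89 (adjusted p = 0.0316), and this call was lost without stem cell replicate 2 (adjusted p = 0.0737) or 4 (0.108) and without interfollicular replicate 1 (0.112) or 2 (0.0583). The papilla to interfollicular difference of -0.64 did not pass (adjusted p = 0.099) although the libraries did not overlap.

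Fzd7, the remaining gene of that subfamily, separated all 4 populations with tight replicates. Its level was 11.3, 11.7 and 12.2 FPKM in dermal stem cells, 3.53, 3.73 and 4.33 in papilla, 20.5, 24.6 and 21.4 in sheath and 17.0, 15.3 and 16.8 in interfollicular dermis. No population overlapped another. Papilla was lower than stem cells by -1.39 (SE 0.18, limma adjusted p = 0.000763), than sheath by -2.25 (adjusted p = 3.26e-06) and than interfollicular dermis by -1.84 (adjusted p = 1.70e-05). Sheath was higher than stem cells by 0.86 (adjusted p = 0.00227). The steps from interfollicular dermis to its neighbours in this order were not called: sheath minus interfollicular dermis was 0.41 (adjusted p = 0.292) and stem cells minus interfollicular dermis -0.45 (adjusted p = 0.0687).

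Fzd5 was high in dermal sheath and low elsewhere. Sheath replicates 1, 4 and 5 had 33.9, 19.2 and 25.1 FPKM. The stem cell libraries had 2.84, 6.01 and 2.37 FPKM, the papilla libraries 3.24, 5.15 and 1.33 and the interfollicular libraries 4.73, 3.96 and 6.19. Those 3 populations overlapped one another, and sheath stood above them all, with a mean 5.26 times that of interfollicular dermis. Sheath exceeded stem cells by 2.56 (SE 0.38, limma adjusted p = 0.000224), and papilla was lower than sheath by -2.75 (adjusted p = 0.000114). Its excess over interfollicular dermis was 2.17 (SE 0.38, adjusted p = 0.0111), and leaving out 1 library took the adjusted p just past the threshold for 4 libraries: sheath replicate 1 (0.0513) or 5 (0.0506) and interfollicular replicate 1 (0.0523) or 2 (0.0501).

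Fzd8, the nearest relative of Fzd5, was low and passed limma's test in no comparison, with 1 of 6 at an unadjusted p below 0.05. The stem cell libraries had 3.52, 5.25 and 3.37 FPKM and the papilla libraries 2.54, 2.06 and 0.437. Sheath replicates 1, 4 and 5 had 3.43, 1.30 and 2.34 FPKM and the interfollicular libraries 2.06, 1.84 and 2.30. Stem cells lay above papilla and interfollicular dermis without overlap, but papilla minus stem cells, at -1.0, had a limma adjusted p of 0.108. With the replicate number as a block, stem cells exceeded interfollicular dermis by 1.02 (adjusted p = 0.0485).

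Fzd4, which besides Wnts binds the secreted protein norrin (Ndp), was lower in interfollicular dermis than in the other populations. Interfollicular replicates 1, 2 and 6 had 1.39, 1.05 and 3.90 FPKM. Stem cells had 8.23, 7.79 and 7.26 FPKM, papilla 7.52, 4.47 and 6.46 and sheath replicates 1, 4 and 5 had 13.2, 9.76 and 9.15. Even the highest interfollicular library, replicate 6, stood below every other library. Stem cells exceeded interfollicular dermis by 1.60 (SE 0.32, limma adjusted p = 0.00214), sheath by 2.01 (adjusted p = 0.00672) and papilla by 1.29 (adjusted p = 0.00699). Among the 3 follicle populations no difference passed. Sheath minus stem cells was 0.40 (95% interval -0.29 to 1.10) with no overlap, and papilla minus sheath was -0.72 (adjusted p = 0.0799), which passed without interfollicular replicate 6 (adjusted p = 0.0269).

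Fzd10, of the same subfamily as Fzd4, divided the libraries into 2 levels. Sheath replicates 1, 4 and 5 had 23.4, 23.7 and 24.1 FPKM and the interfollicular libraries 18.5, 28.6 and 20.4. The stem cell libraries had 1.47, 2.67 and 2.09 FPKM and the papilla libraries 1.77, 3.49 and 0.807. Every sheath and interfollicular library was above every stem cell and papilla library, and within each pair of populations the libraries overlapped. The ratio of the interfollicular to the stem cell mean was 10.8. Sheath exceeded stem cells by 3.02 (SE 0.31, limma adjusted p = 1.60e-05), and papilla was lower than sheath by -3.13 (adjusted p = 1.21e-05). Stem cells and papilla were lower than interfollicular dermis by -2.93 (adjusted p = 2.21e-05) and -3.04 (adjusted p = 2.18e-05). Sheath minus interfollicular dermis was 0.10, with a 95% interval of -0.58 to 0.78. The proliferation genes described above were high in the same 6 libraries, and so were Trp63 and Krt5, but the keratinocyte genes as a list were divided. Krt5 averaged 118 FPKM in stem cells, 140 in papilla, 395 in sheath and 378 in interfollicular dermis. Krt1 and Krt10 went the other way, and Krt10 averaged 361, 1530, 53.4 and 167 FPKM in the same order. Krt14, Krt15, Cdh1 and Epcam did not divide the libraries in either direction. The part of such cells in the Fzd10 level was not tested.

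Fzd6, the receptor known for hair orientation, showed the same division at a lower level. Sheath replicates 1, 4 and 5 had 12.9, 8.02 and 14.7 FPKM and the interfollicular libraries 12.2, 9.89 and 11.8. The stem cell libraries had 1.79, 4.92 and 2.41 FPKM and the papilla libraries 2.10, 4.97 and 3.31. Replicate 2 was the highest library of both of the lower populations, yet it stood below every sheath and interfollicular library. Sheath exceeded stem cells by 1.71 (SE 0.34, limma adjusted p = 0.00151), and papilla was lower than sheath by -1.54 (adjusted p = 0.00248). Stem cells and papilla were lower than interfollicular dermis by -1.68 (adjusted p = 0.00217) and -1.51 (adjusted p = 0.00369). Sheath minus interfollicular dermis was 0.03, with a 95% interval of -0.70 to 0.76.

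Fzd3, the other receptor linked to planar polarity, stayed between 0.305 and 1.93 FPKM in all 12 libraries. Its means were 0.865 ± 0.406 FPKM in dermal stem cells, 1.06 ± 0.712 in papilla, 0.944 ± 0.0923 in sheath and 1.70 ± 0.209 in interfollicular dermis (SD, n = 3 each). The interfollicular libraries (1.53, 1.93 and 1.64 FPKM) lay above the stem cell and sheath libraries without overlap, but no comparison of Fzd3 passed limma's test, and none had an unadjusted p below 0.05. Fzd9 was at or below 0.423 FPKM in every library and listed at 0 in 4 of the 12, including 2 of the 3 sheath libraries. Its reads cannot be counted from these files, so no lower limit of detection is given.

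**Figure D2:**
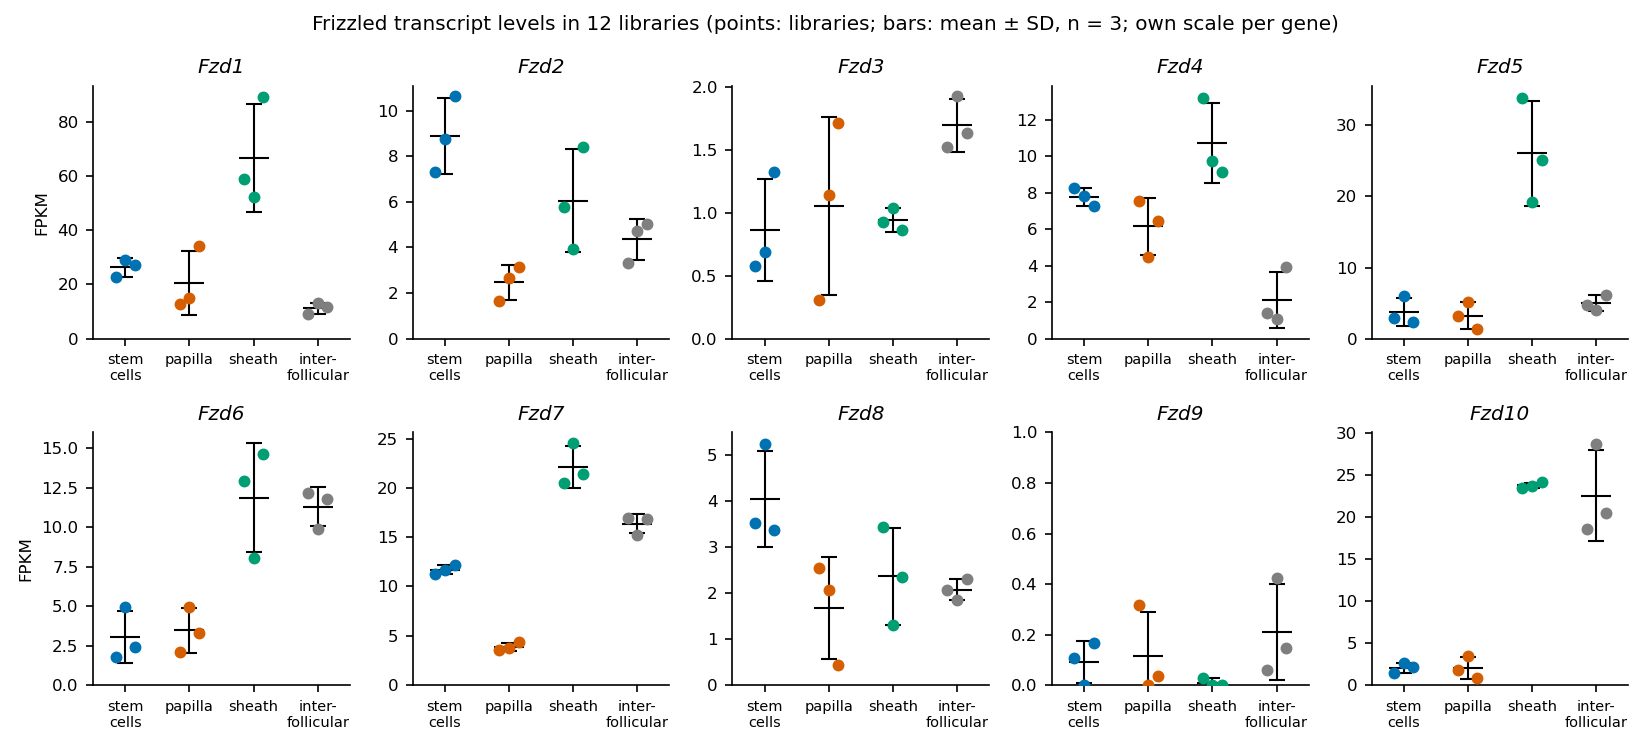
FPKM of each Frizzled gene in each library (points), with the mean ± SD of the 3 libraries of each population (bars); each panel has its own scale, starting at 0. Sheath stands apart for Fzd1 and Fzd5, interfollicular dermis for Fzd4 and papilla for Fzd2 and Fzd7, and Fzd10 lies at 18.5 FPKM or more in sheath and interfollicular dermis and at 3.49 or less elsewhere.

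Papilla against dermal stem cells was the comparison in which the fibroblast markers were high on both sides. Of the 9 tested members 2 were lower in papilla, Fzd2 and Fzd7, and none was higher, where 8.69% of all tested genes were called, 2.31% higher and 6.38% lower. The median of the members was -0.32 and that of all tested genes -0.25. The labels do not say that libraries were paired, but same-numbered libraries of these populations deviated together. With the number as a block, the same 2 members were called in the fit of all libraries and in a fit of the 6 stem cell and papilla libraries alone (adjusted p = 0.0366 for Fzd2 and 0.0346 for Fzd7). Unpaired, the 6 libraries alone gave 0.0359 and 0.0184. Libraries of 3 members did not overlap, the called ones and Fzd8, where 30% of all tested genes did not overlap. Melanocyte genes were higher in papilla (sums 192 to 810 FPKM against 13.8 to 83.9, with 5 of 5 not overlapping). Of 4 Schwann cell genes 3 were also higher without overlap (sums 15.9 to 89.7 against 5.86 to 13.9), as were 3 of the 8 keratinocyte genes (1080 to 3210 against 600 to 1160). The 5 markers of dermal sheath and dermal stem cells were all lower in papilla (61.9 to 170 FPKM against 1510 to 1620), and of the fibroblast genes 5 were higher and 2 lower. Of 6 papilla markers only 1 was higher and 1 lower in papilla without overlap, and their sums overlapped (143 to 875 against 109 to 206). Macrophage and leukocyte genes varied widely among the stem cell libraries (sums 21.9 to 794 FPKM, against 42.8 to 190 in papilla), and none of the 5 separated the populations. The part of these cells in the Frizzled differences was not tested.

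Against dermal stem cells, dermal sheath had 5 of 9 members called higher (Fzd1, Fzd5, Fzd6, Fzd7 and Fzd10) and none lower, where 43.9% of all tested genes were called. Higher calls made up 24.3% of all tested genes and lower calls 19.6%. Libraries of 6 members lay wholly above those of stem cells, the called ones and Fzd4, where 58.7% of all tested genes did not overlap. The median member difference was 0.86 and that of all tested genes 0.13. With median-of-ratios scaling and with quantile normalization the same number of members was called. Papilla against sheath called 6 members, all lower in papilla (Fzd1, Fzd2, Fzd5, Fzd6, Fzd7 and Fzd10), where 49.8% of genes were called, 16.4% higher and 33.4% lower. Libraries of 7 members did not overlap, the called ones and Fzd4, where 55.7% of all tested genes did not. The member median was -1.54 against -0.36 for all genes.

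Dermal stem cells against interfollicular dermis called 5 members in opposite directions, where 37.6% of genes were called. Fzd1, Fzd2 and Fzd4 were higher in stem cells (17.9% of all tested genes were higher), and Fzd6 and Fzd10 lower (19.7% were lower). Libraries of 8 members did not overlap, 4 in each direction, where 52.7% of all tested genes did not. The count fell to 3 without interfollicular replicate 1. Papilla against interfollicular dermis called Fzd4 higher and Fzd6, Fzd7 and Fzd10 lower, 4 of 9 where 42.3% of genes were called, 13.7% higher and 28.6% lower. Libraries of 5 members did not overlap, those 4 and Fzd2, where 48.5% of all tested genes did not. Under median-of-ratios scaling and under quantile normalization Fzd1 joined the higher members, which made 2 higher and 3 lower.

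Sheath against interfollicular dermis called 3 of 9 members where 2.26% of all tested genes were called, 0.939% higher and 1.32% lower. The 289 calls behind that share became 103 without sheath replicate 5 and 114 without interfollicular replicate 1. Fzd1, Fzd4 and Fzd5 were higher in sheath and none was lower. Libraries of 5 members did not overlap, Fzd7 above and Fzd3 below besides the called ones, where 21.6% of all tested genes did not. The 2 populations had similar sums of the fibroblast genes (954 to 1910 and 812 to 1540 FPKM) and of the keratinocyte genes (941 to 1110 and 968 to 1330), but 3 of the 8 keratinocyte genes were lower and 1 higher in sheath without overlap. The 6 hair follicle epithelial genes reached 892 to 1140 FPKM in sheath and 573 to 741 in interfollicular dermis, but did not move together. In sheath 2 of them were higher (Krt25 and Krt71) and 1 lower (Hoxc13) without overlap. The proliferation genes reached 192 to 228 FPKM in sheath and 124 to 144 in interfollicular dermis. Melanocyte genes were at 8.78 to 16.6 FPKM in sheath, with Pmel at 0 in all 3 libraries, and at 150 to 922 in interfollicular dermis. Of the Schwann cell genes 3 of 4 were lower in sheath without overlap (3.08 to 6.1 against 9.5 to 20.0 FPKM), and of the dermal sheath and stem cell markers 3 of 5 were higher (100 to 336 against 14.8 to 33.3). Whether these cells bear on the Frizzled differences was not tested. The comparisons share populations, so their counts are not independent of one another.

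**Figure D3:**
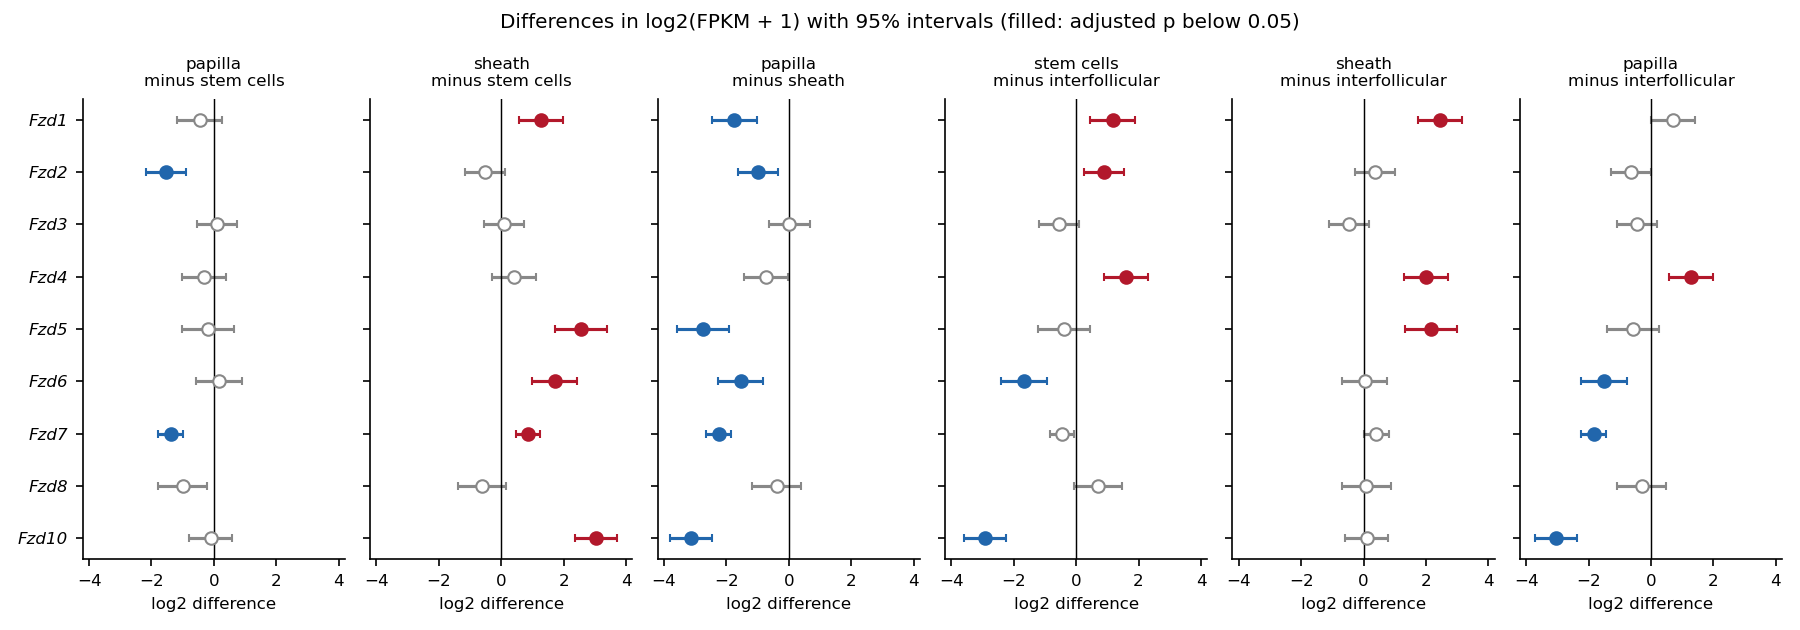
Differences in log2(FPKM + 1) of the 9 tested Frizzled genes in the 6 comparisons, with 95% intervals from limma; filled points have an adjusted p below 0.05, red when the first-named population is higher and blue when it is lower. Red points fill the sheath minus stem cells panel for 5 genes, and blue points the papilla minus sheath panel for 6.

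Genes that followed a Frizzled gene most closely over the 12 libraries were ranked by the root mean square difference of centred log2(FPKM + 1) profiles among 9350 genes averaging at least 5 FPKM in 1 population. Prickle2 was nearest to Fzd1 (0.279), followed by Sorcs2 (0.422) and Slc1a3 (0.484). Prickle2, a planar polarity protein, averaged 5.81 FPKM in stem cells, 2.77 in papilla, 13.7 in sheath and 2.45 in interfollicular dermis. Fzd5 was nearest to Slc39a6 (0.318), Plxna2 (0.390) and Slco4a1 (0.419), and Fzd4 to Slc25a30 (0.375), Msn (0.426) and Sh3d19 (0.454). For Fzd2 the nearest were Hs6st1 (0.220), Rara (0.224) and Tead3 (0.286), and for Fzd7 Taf6 (0.208), Cchcr1 (0.238) and Rfc2 (0.245). Fzd6 was followed by Maml3 (0.260), Glcci1 (0.265) and Rars2 (0.284). Fzd10 was followed by Rassf6 (0.268), Nup210 (0.269) and E2f2 (0.291). E2f2, a cell cycle transcription factor, averaged 0.854, 0.60, 11.1 and 11.7 FPKM in stem cells, papilla, sheath and interfollicular dermis.

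Proteins that share the Wnt with a Frizzled receptor were measured alongside. Counts in the lists that follow are to be read against the shares of all tested genes called in each direction, given above for each comparison. Of 7 co-receptors and alternative receptors 6 were tested. In papilla against sheath 5 were lower and none higher, among them Ptk7 (-1.28), Lrp5 (-1.26), Lrp6 (-0.96) and Ror2 (-0.95). With median-of-ratios scaling only 1 of these remained called, and with quantile normalization 2. The list median was -0.95 against -0.36 for all genes. Lrp6, a co-receptor of canonical signalling, averaged 24.5 ± 2.64 FPKM in stem cells, 11.2 ± 1.94 in papilla, 22.8 ± 4.68 in sheath and 14.6 ± 4.26 in interfollicular dermis (SD, n = 3 each). It was the 1 list member lower in papilla than in stem cells (-1.08, limma adjusted p = 0.0173), a call lost under 4 of 19 other settings (adjusted p 0.052 to 0.0744 there), namely both rescalings and without stem cell replicate 1 or 4. The blocked fit called 2 members. Like Fzd2, Lrp6 was higher in stem cells than in interfollicular dermis (0.74, adjusted p = 0.0304), a call lost under 4 of 19 other settings. No member of the list passed limma's test between sheath and interfollicular dermis, where 2 had an unadjusted p below 0.05.

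The genes of Frizzled turnover fell into opposing groups. Rnf43 and Znrf3, the ligases that remove Frizzled from the membrane, were at the higher level in the same 2 populations as Fzd10 and Fzd6. Rnf43 averaged 0.932 FPKM in stem cells, 0.747 in papilla, 8.11 in sheath and 8.20 in interfollicular dermis, and Znrf3 1.82, 2.19, 9.13 and 8.28. Of the 9 genes, all tested, 5 were higher and 2 lower in sheath than in stem cells, led by Rnf43 (2.26), Rspo1 (-2.25), Lgr5 (2.23) and Lgr6 (1.96). The other lower gene, Rspo3 (-1.38), lost its call under 11 of 19 other settings. Of all tested genes 24.3% were higher and 19.6% lower there, and the list median was 1.35 against 0.13. In papilla against stem cells 3 were higher and 1 lower (list median 0.12 against -0.25). The 3 were the R-spondins Rspo3 (3.37), Rspo2 (2.51) and Rspo4 (2.49), of which Rspo4 lost its call under 6 of 19 other settings. The lower gene, Lgr6 (-1.31), lost its call under 7 of 19. Between sheath and interfollicular dermis the R-spondin receptors Lgr5 (2.49, limma adjusted p = 0.00648), Lgr6 (2.26, adjusted p = 0.00458) and Lgr4 (1.30, adjusted p = 0.0481) were higher in sheath, as were Fzd1, Fzd4 and Fzd5. The Lgr4 call was lost under 15 of the 19 other settings tried (adjusted p 0.056 to 0.176 there). With the replicate number as a block none of the 3 was called, with adjusted p = 0.058 for Lgr5 and 0.0528 for Lgr6. The block leaves sheath replicate 5 and interfollicular replicate 6 without weight, so it cannot tell a weaker difference from fewer libraries.

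Partners that give Frizzled receptors a ligand preference were lower in sheath than in stem cells and papilla. These are norrin (Ndp) and its Fzd4-associated tetraspanin Tspan12, and Gpr124 and Reck, which pass Wnt7 signals to Frizzled. All 4 were lower in sheath than in stem cells, and all 4 were higher in papilla than in sheath and in interfollicular dermis. Stem cells against interfollicular dermis called 3 of the 4 higher, and Tspan12 did not pass (0.55, limma adjusted p = 0.175) and its libraries overlapped. Reck averaged 23.0 FPKM in stem cells, 15.5 in papilla, 1.43 in sheath and 1.28 in interfollicular dermis. Ndp averaged 5.79, 6.26, 0.538 and 0.617 FPKM in the same order, and its stem cell libraries ranged from 2.09 to 10.9. Fzd4 itself was at its highest mean in sheath, where both Ndp (-1.98, limma adjusted p = 0.0133) and Tspan12 (-1.07, adjusted p = 0.0129) were lower than in stem cells. Each of these calls was lost under 2 of 18 other settings. Both were lost without stem cell replicate 4, Ndp (-1.46 there) also without sheath replicate 5 and Tspan12 also under quantile normalization, with adjusted p from 0.0548 to 0.075.

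**Figure D4:**
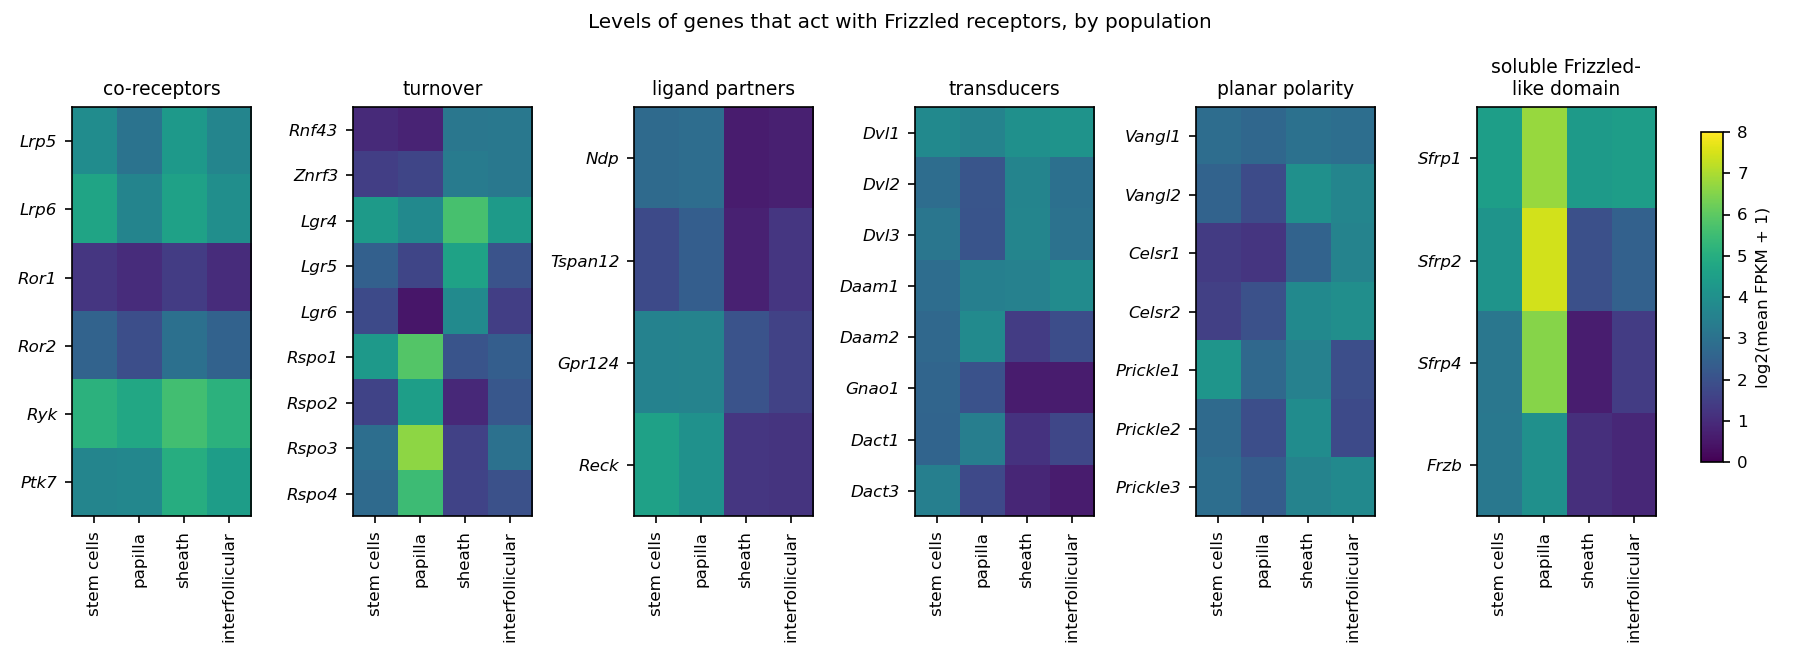
Mean levels, as log2(mean FPKM + 1), of the tested genes of 6 lists in the 4 populations; each cell is the mean of 3 libraries, and brighter cells are higher. Rnf43 and Znrf3 are brighter in sheath and interfollicular dermis, Ndp, Tspan12, Gpr124 and Reck in stem cells and papilla, and Sfrp2 and Sfrp4 in papilla.

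Cytoplasmic proteins that bind Frizzled or Dishevelled were divided. Of 8 tested, 4 were higher and 2 lower in papilla than in sheath. Daam2 (2.24) and Dact1 (2.22) led the higher ones, and the Dishevelled genes Dvl3 (-1.57) and Dvl2 (-1.53) were the lower pair. Planar polarity genes, whose products act with Fzd3 and Fzd6, were mostly lower in papilla than in sheath. Of 7 tested, 6 were lower there and none higher, led by Vangl2 (-2.21), Prickle2 (-1.97), Celsr2 (-1.79) and Celsr1 (-1.37), with a list median of -1.37 against -0.36 for all genes. Against stem cells 1 was lower in papilla, Prickle1 (-1.48), and against interfollicular dermis 4 were lower and 1, again Prickle1 (0.78), was higher. In sheath against stem cells 4 were higher and 1 lower, led by Celsr2 (2.27). Prickle2 (2.06, limma adjusted p = 0.0018) and Prickle1 (1.61, adjusted p = 0.00281) were the 2 members higher in sheath than in interfollicular dermis. With the replicate number as a block, Prickle1 was not called there (1.35, adjusted p = 0.0927). That fit likewise gave no weight to sheath replicate 5 and interfollicular replicate 6.

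The canonical relay below the receptor comprised 11 tested genes. In sheath against stem cells 7 were higher and 2 lower, led by Lef1 (2.49), Tcf7 (1.73), Axin2 (1.43) and Tcf7l2 (-1.18), with a list median of 0.76 against 0.13 for all genes. The call of Axin2 was lost without sheath replicate 4 (adjusted p = 0.052), and that of Tcf7l2 without stem cell replicate 4 (0.0641) or sheath replicate 1 (0.0711). Lef1 and Tcf7 are transcription factors that act with beta-catenin, and Axin2 is a feedback inhibitor that canonical signalling induces. In papilla against sheath 8 were lower and none higher, which fell to 4 with median-of-ratios scaling. Axin2 was not among them. It averaged 2.19 FPKM in stem cells, 8.90 in papilla, 7.60 in sheath and 13.8 in interfollicular dermis. Papilla minus stem cells was 1.39 for Axin2 with no overlap but did not pass (limma adjusted p = 0.0536), and papilla and sheath overlapped (-0.03). In papilla against stem cells no relay gene was called higher and 2 were lower. With median-of-ratios scaling and with quantile normalization 2 were higher and 1 lower, and with the replicate block 1 was higher and 2 lower. No relay gene passed limma's test between sheath and interfollicular dermis, where 5 of the 11 had an unadjusted p below 0.05 (4 higher and 1 lower).

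Soluble proteins with a Frizzled-like domain, which can bind Wnts away from the cell, were highest in papilla, where Fzd2 and Fzd7 were lowest. Of 4 tested, 3 were higher in papilla than in stem cells: Sfrp4 (3.41), Sfrp2 (3.34) and Sfrp1 (2.21). All 4 were higher in papilla than in sheath and in interfollicular dermis. Sfrp2 averaged 174 FPKM in papilla, 16.8 in stem cells, 2.85 in sheath and 4.58 in interfollicular dermis. Of 4 tested membrane or matrix proteins with such a domain, Corin (-4.2) and Cpz (-3.13) were lower in sheath than in stem cells, and in papilla against stem cells limma called none, with 2 at an unadjusted p below 0.05. Among the Wnt ligands 11 of 19 were tested. Stem cells had 3 higher and 7 lower than interfollicular dermis, where 17.9% of all tested genes were higher and 19.7% lower, with a list median of -1.39 against -0.14. With the replicate number as a block, which gives interfollicular replicate 6 no weight, 4 were higher and 5 lower. The calls of Wnt3 and Wnt7b were lost under 7 of 19 and 10 of 18 other settings. Those of Wnt5a and Wnt6, also lower, were lost under 5 of 19 and 4 of 19. The largest differences were those of Wnt10b (-3.20), Wnt4 (-2.59) and Wnt10a (-2.16), lower, and Wnt9a (2.51), higher. Wnt4 averaged 2.09 FPKM in stem cells, 2.28 in papilla, 17.1 in sheath and 17.1 in interfollicular dermis. It was thus high in the same populations as Fzd10.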

How the data were processed

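The authors deposited 1 table of FPKM values with a column for each of the 12 libraries. Per the submitters' processing notes, TopHat2 2.0.13, SAMtools and Cufflinks 2.2.1 were used with the mm10 build; their roles, settings and annotation are not given in the sources used here, and no number of reads is known. The 12774 genes that reached 1 FPKM in 3 or more libraries were tested. A linear model of log2(FPKM + 1) on the 4 populations was fitted in limma 3.58.1 (R 4.3.3) with a mean-variance trend (8 residual and 4.61 prior degrees of freedom), and p-values were adjusted by Benjamini-Hochberg over all tested genes within each of 6 comparisons. The procedure was tested on simulated data. The Frizzled genes and the 9 pathway lists were chosen with earlier results of these data known, and so was the design; pathway genes are named where they were among the up to 4 largest differences that passed in a list and comparison. Adgra2 was matched by its older symbol Gpr124. Fzd2 and Fzd10 share an older name and were told apart by Entrez identifier. Gene positions come from GENCODE M21 and promoters from RefSeq, both on GRCm38.

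Replicate numbers come from the sample titles; a sheath library titled with an added letter was taken as replicate 1. The labels state no pairing. Same-numbered stem cell and papilla libraries deviated together (correlations over genes of 0.306, 0.241 and 0.389 for numbers 1, 2 and 4). So did sheath replicate 1 and interfollicular replicate 6, whose numbers differ (0.445), whereas sheath replicate 1 and interfollicular replicate 1 did not (-0.272). Pairing of stem cells and papilla was therefore an assumption, and values with the block are given beside that comparison. The other populations share at most 2 numbers, and sheath and interfollicular dermis only number 1. No other library has the number of sheath replicate 5 or interfollicular replicate 6. With the block these libraries add nothing to any comparison. Alternatives were a pseudocount of 0.1, no filter, a filter of 5 FPKM, median-of-ratios scaling, quantile normalization, the replicate number as a block, no trend, and each library left out. A fit of the stem cell and papilla libraries alone was added after seeing the data.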

Additional observations from a re-analysis of the deposited data

How the results depend on the processing

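The number of Frizzled genes called stayed at 2 for papilla minus stem cells, at 5 for sheath minus stem cells and at 7 in the F test under every alternative run. It ranged from 5 to 7 for papilla minus sheath, from 2 to 3 for sheath minus interfollicular dermis, from 4 to 5 for papilla minus interfollicular dermis and from 3 to 6 for stem cells minus interfollicular dermis, where leaving out 1 library gave 3 to 5, with 3 without interfollicular replicate 1; the cause was not tested. Of the alternative values of single Frizzled genes, 982 kept their direction and side of the threshold, 13 lost the call, 6 gained it and 31 changed sign, none of them a called difference. With quantile normalization the sign changed for papilla minus stem cells in Fzd5 (0.077) and Fzd10 (0.18), for papilla minus sheath in Fzd3 (-0.061) and for sheath minus interfollicular dermis in Fzd6 (-0.049) and Fzd10 (-0.0019). With median-of-ratios scaling it changed for Fzd10 in papilla minus stem cells (0.034), Fzd3 in sheath minus stem cells (-0.024) and Fzd6 in sheath minus interfollicular dermis (-0.031), and with a pseudocount of 0.1 for Fzd3 in papilla minus sheath (-0.10). With the replicate block, Fzd3 in papilla minus sheath was -0.0074, Fzd5 in stem cells minus interfollicular dermis 0.054 and Fzd8 in papilla minus interfollicular dermis 0.024. The replicate block changed the calls of Fzd2 in papilla minus sheath and of Fzd8 in stem cells minus interfollicular dermis. Its count of calls for papilla minus stem cells was again 2. Without the filter, Fzd7 was called in stem cells minus interfollicular dermis (adjusted p = 0.0203). Leaving out 1 library, papilla minus stem cells ranged from -0.13 to 0.39 for Fzd3, -0.52 to 0.18 for Fzd5, -0.069 to 0.48 for Fzd6 and -0.44 to 0.21 for Fzd10. Sheath minus stem cells ranged from -0.031 to 0.25 for Fzd3, and papilla minus sheath from -0.22 to 0.31 for Fzd3 and -0.63 to 0.020 for Fzd8. Sheath minus interfollicular dermis ranged from -0.13 to 0.27 for Fzd6, -0.14 to 0.33 for Fzd8 and -0.026 to 0.28 for Fzd10, and papilla minus interfollicular dermis from -0.55 to 0.10 for Fzd8. Over all tested genes, calls for papilla minus stem cells went from 1110 to 515, 625 and 709 without stem cell replicates 1, 2 and 4, and to 658 and 512 in fits of those 6 libraries alone with and without the block. Calls for sheath minus interfollicular dermis went from 289 to 150 with the block, to 167, 189 and 103 without sheath replicates 1, 4 and 5 and to 114 and 163 without interfollicular replicates 1 and 2. Of 190 called differences of pathway genes, 129 were called under every alternative and none changed sign; median-of-ratios scaling ended 27, quantile normalization 26 and the block 28. Of the 21 genes most similar in pattern, 20 were kept with the filter of 5 FPKM and 21 with none. Low levels limit Fzd3, Fzd8 and Fzd9, for which the number of reads is unknown.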
